A study of Homo sapiens with 8 samples.

Results

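The control RNA of 3 lung cancer cell lines was compared across arrays: EBC-1 and SK-MES-1, which the labels give as lung squamous cell carcinoma (LUSQ), and SBC-3, which they give as small cell lung cancer. The members are the 5 green (Cy3) control channels of these lines, of 8 green control channels in the series, and the rule that takes them names a cell line and a dye and uses no measured value. Squamous cell carcinoma arises from airway epithelium and is classically marked by *TP63*, *SOX2* and the basal keratins. Small cell lung cancer is a neuroendocrine carcinoma that usually lacks working *RB1*, and factors that name its subtypes include *NEUROD1*, *POU2F3* and *YAP1*. Low display of MHC class I molecules is a known trait of many small cell lung cancers, and an active NRF2 response is a known trait of many squamous ones.

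Each of the 5 control RNAs had been hybridized together with red (Cy5) RNA of treated cells of the same line, which was *miR-150-3p*-transfected on the EBC-1 and SK-MES-1 arrays and transfected with 1 of 3 siRNAs against *DONSON* on the SBC-3 arrays. The controls are called mock in one label and untransfected in another, and the growth medium is given as a choice of RPMI or EMEM without saying which line had which. EBC-1 and SK-MES-1 had 1 channel each (n = 1 per line), and SBC-3 had 3 channels. No label says that the SBC-3 channels came from separate cultures. At 300 probes spotted 10 times, the SD per channel between SBC-3 channels was estimated from the median absolute difference of a spot between channels. It was 0.053 to 0.0577 on the log2 scale, against a median SD of 0.0553 to 0.0608 between replicate spots within a channel. At the typical spot the 3 SBC-3 channels thus differed by no more than repeated spots did. They were counted as 1 sample in the test. Single genes could differ more, as *ITM2A* did with 17.28, 16.83 and 16.95. The SD estimated in the same way was 0.602 between EBC-1 and SK-MES-1. Levels are log2 intensities after quantile normalization of the 5 channels, and a difference of 1 is a factor of 2. The lowest signal well above background lay at 4.81 to 5.49 in the 5 channels, and values below it are called background here. Levels of different genes come from different probes and were not compared with each other.

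Of 14236 named genes tested, 0 passed an adjusted p of 0.05 in limma with the SBC-3 channels averaged (percent called 0). The smallest adjusted p was 0.0843, and 2337 genes had an unadjusted p under 0.05. This test has 1 residual degree of freedom. With the 3 SBC-3 channels entered as separate samples, the same test called 6477 genes (45.5%), and with the cell line as a random block it called 1147. As no gene passed the main test, genes were described by size. A gene is called higher where both squamous lines lay above every SBC-3 channel by at least 1 on the log2 scale, and lower where both lay below every SBC-3 channel by as much. By this rule 1812 genes (12.7%) were higher in the squamous lines and 2055 (14.4%) were lower. These shares are the background against which each gene list below is read. No SBC-3 channel was well above background for 681 of the higher genes, and neither squamous line was for 607 of the lower ones. The levels of EBC-1 and SK-MES-1 correlated across genes with r = 0.872, those of EBC-1 and SBC-3 with 0.664 to 0.665 and those of SK-MES-1 and SBC-3 with 0.697 to 0.698, as a description over 14236 genes that are not independent. Fewer cells of a kind and less RNA per cell cannot be told apart in such bulk RNA.

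**Figure D1:**
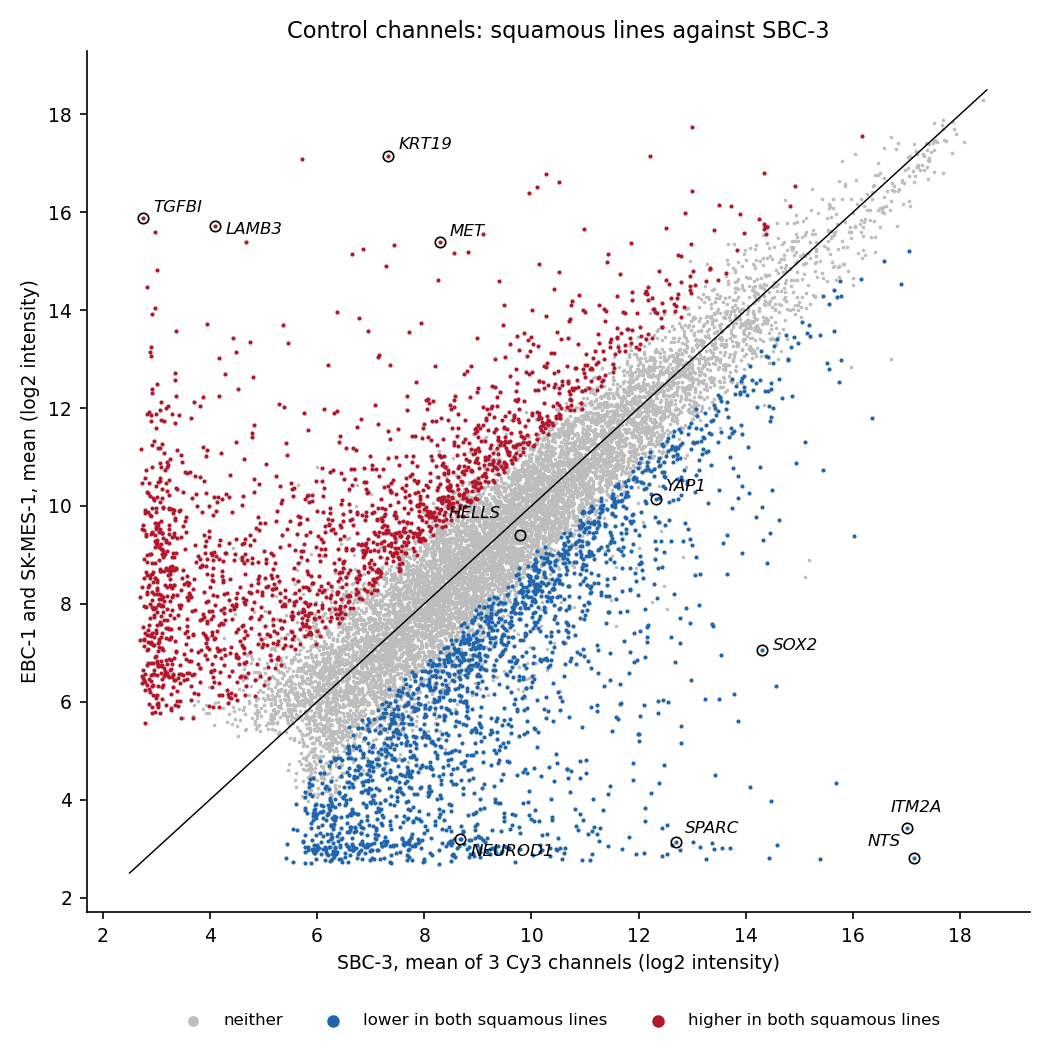
Each point is a gene, placed by its mean log2 intensity in the 3 SBC-3 control channels (horizontal axis) and in EBC-1 and SK-MES-1 (vertical axis), in red where both squamous lines were higher than every SBC-3 channel by at least 1, in blue where both were lower and in grey otherwise. *XIST* and Y-linked genes are not drawn. Circled genes such as *TGFBI* and *NTS* lie far from the line of equal levels, and *HELLS* lies close to it.

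The 12 genes with the widest gap above SBC-3 in both squamous lines included genes of matrix and calcium-binding proteins. *TGFBI*, a secreted matrix protein that binds integrins, was 15.36 (EBC-1) and 16.39 (SK-MES-1), against 2.77, 2.76 and 2.73 in the SBC-3 channels. The transcript was bright in both squamous lines and at background in SBC-3, at least 1560-fold apart (log2 difference 13.12, SE 0.74, limma adjusted p = 0.0843). *LAMB3*, the beta chain of laminin-332, was 15.40 and 16.05 in the squamous lines and 3.97 to 4.17 in SBC-3, a gap of at least 1410-fold. *S100A6*, a calcium-binding protein, was 16.61 and 17.55 against 5.51, 6.32 and 5.33, and was the only one of the 12 highest genes that was well above background in any SBC-3 channel. The 12 also held *OCIAD2*, *G0S2*, *CAVIN3*, *C19orf33*, *PLEK2*, *MALL*, *TM4SF1* and *THBD*, the last of which encodes thrombomodulin. The log2 differences of the 12 ranged from 10.2 to 13.12.

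The 12 genes with the widest gap below SBC-3 were at background in both squamous lines. *NTS*, the precursor of the neuropeptide neurotensin, was 2.79 (EBC-1) and 2.82 (SK-MES-1), against 17.08, 17.09 and 17.23 in SBC-3. The squamous channels held no signal above background for this gene, and the gap was at least 4050-fold (log2 difference -14.33, SE 0.56, limma adjusted p = 0.0843). *ITM2A*, a membrane protein, was 3.07 and 3.75 against 17.28, 16.83 and 16.95, at least 3740-fold apart. *SPINK6*, a protease inhibitor of the skin, was 2.79 and 2.78 against 15.35 to 15.42. The 12 lowest genes further held *PRAC1*, 3 type I keratin genes (*KRT24*, *KRT25* and *KRT222*), the chemokine genes *PF4V1* and *CXCL6*, and *IGDCC3*, *MTTP* and *SOSTDC1*. None of the 12 was well above background in either squamous line, and their log2 differences ranged from -14.33 to -10.12.

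The labelled cell types were checked against their markers. Of 35 squamous lineage genes, 14 were bright enough to be tested, of which 5 were higher in the squamous lines and 2 lower (35.7% and 14.3%, against 12.7% and 14.4% of all genes). Of the 21 genes left untested, SK-MES-1 was above 8 for 1 and EBC-1 for 2. The defining markers named next were weak or absent in both squamous lines. *KRT5*, a basal keratin, was at background everywhere, with 2.79 and 2.81 in the squamous lines and 2.78 to 2.83 in SBC-3. *TP63*, the basal cell factor, was 4.61 (EBC-1) and 5.37 (SK-MES-1), against 6.58, 6.35 and 6.60 in SBC-3, and *KRT6A* and *DSG3* were at background in all 5 channels. *SOX2*, which is often amplified in squamous tumors and is also a factor of neural progenitors, was 7.61 and 6.52 in the squamous lines and 14.34, 14.30 and 14.29 in SBC-3. The 2 sides did not overlap, and SBC-3 held the higher level by 151-fold (log2 difference -7.24, SE 0.76, limma adjusted p = 0.0856).

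The 5 squamous lineage genes that were higher encode keratinocyte proteins, 1 of them the keratin *KRT15*. *SFN*, or 14-3-3 sigma, was 15.35 and 15.96 in the squamous lines against 10.88, 11.10 and 11.00 in SBC-3 (limma adjusted p = 0.0979). *S100A2*, a calcium-binding protein of basal cells, was 11.85 in EBC-1, 16.38 in SK-MES-1 and 9.40 to 9.56 in SBC-3, and most of its difference came from SK-MES-1. *SERPINB5*, or maspin, was 11.89 and 10.81 against 8.08 to 8.21, *PERP*, a desmosomal protein, 13.01 and 13.85 against 10.67 to 10.71, and *KRT15* 10.04 and 10.89 against 7.64 to 8.03. The log2 differences of the 5 lay between 2.60 and 4.66. *LY6D*, a surface antigen of keratinocytes, went the other way, with 7.11 in EBC-1, 2.72 in SK-MES-1 and 8.85 to 8.94 in SBC-3.

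SBC-3 carried part of the neuroendocrine set. Of 46 neuroendocrine and neuronal genes, 24 were tested, and 12 of these were lower in the squamous lines than in SBC-3 and 2 were higher (50% and 8.33%). Their median log2 difference was -2.89, against -0.08 for all genes tested. *NEUROD1*, a neurogenic factor that names a small cell subtype, was 3.21 and 3.17 in the squamous lines and 8.70, 8.61 and 8.72 in SBC-3. It was above background only in SBC-3, by at least 11.5-fold (log2 difference -5.48, SE 0.56, limma adjusted p = 0.0843). The medium and light neurofilament genes *NEFM* and *NEFL* were at 11.10 to 11.14 and 8.33 to 8.53 in SBC-3 and at background in both squamous lines, at least 63.0-fold and 9.77-fold lower. *DPYSL5*, a protein of growing axons, was at least 36.9-fold lower in the squamous lines, the neuronal motor genes *KIF5C* and *KIF1A* at least 20.3-fold and 5.23-fold, the prohormone convertase gene *PCSK1* at least 2.27-fold and *SYP*, or synaptophysin, at least 4.01-fold. In 8 of the 12, neither squamous line was well above background. A gene enters the test through the side on which it is bright, so these counts are no independent measure of a difference. Among the 10 neuroendocrine genes bright in all 5 channels, 2 were lower and 1 higher (20% and 10%, against 9.55% and 8.88% of 11490 genes under that filter).

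Other defining neuroendocrine genes were not above background in SBC-3. *INSM1*, *GRP* and *NCAM1* were at background in SBC-3. *UCHL1*, a neuronal deubiquitinase, was 17.59 in SK-MES-1, 2.88 in EBC-1 and 2.87 to 2.88 in SBC-3. Among these 3 lines, the signal for this neuroendocrine marker was in the squamous line SK-MES-1. Of the 2 genes that were higher in the squamous lines, *SCG5*, a granule chaperone, was 6.46 and 10.56 against 3.20 to 4.47, and *TUBB3*, a neuronal tubulin, 12.99 and 12.78 against 10.94 to 11.13.

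**Figure D2:**
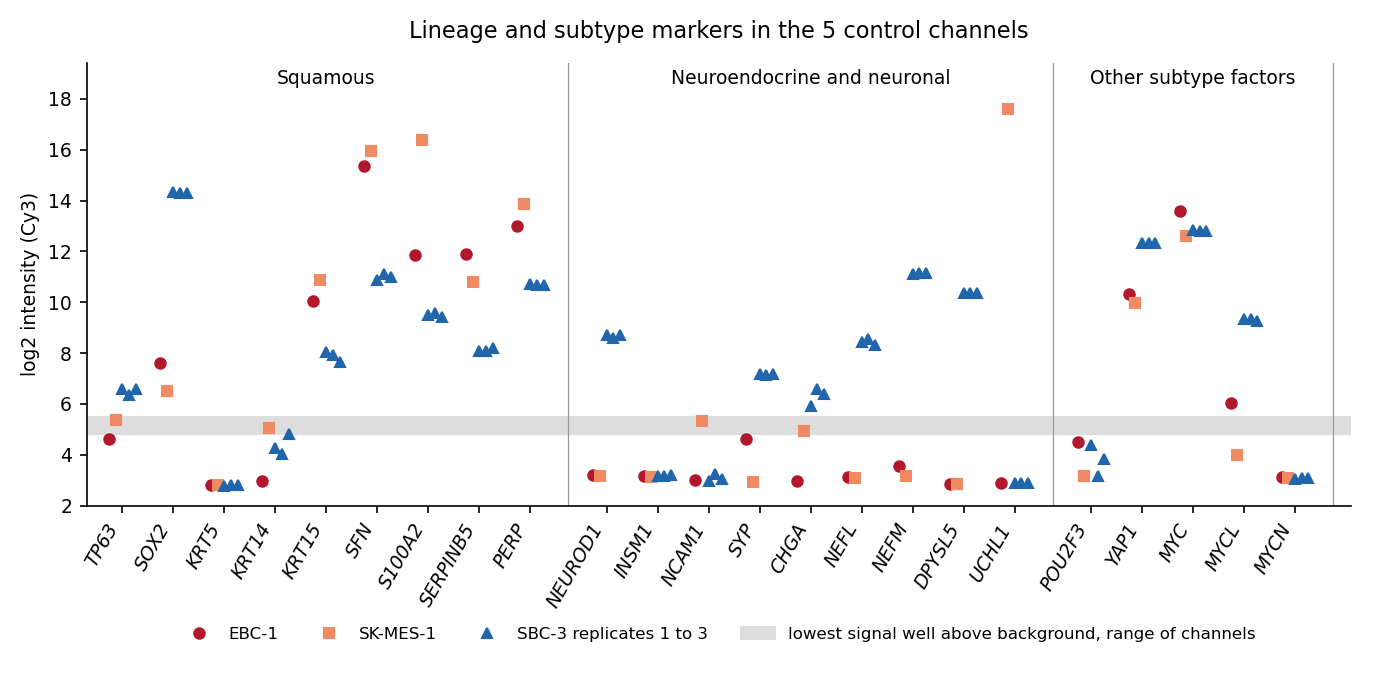
Log2 intensity (vertical axis) of squamous, neuroendocrine and subtype markers in EBC-1 (circles), SK-MES-1 (squares) and the 3 SBC-3 control channels (triangles), with the lowest signals well above background as a grey band. *SOX2* and *NEUROD1* are highest in SBC-3, *KRT5* lies below the band in all 5 channels, and *UCHL1* is above it in SK-MES-1 alone.

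The remaining subtype factors of small cell lung cancer gave a mixed picture. *POU2F3*, the tuft cell factor, was not tested, with 4.5 and 3.15 in the squamous lines and 3.17 to 4.40 in SBC-3. Of 11 tuft cell genes, 10 were on the array and 3 were tested, with 1 higher (*SOX9*, an epithelial progenitor factor, 8.18 and 8.57 against 2.99 to 3.51) and 1 lower (*PTGS1*, a cyclooxygenase). *YAP1*, a co-activator of the Hippo pathway that is silent in most neuroendocrine small cell lines, was 10.32 and 9.95 in the squamous lines and 12.32, 12.34 and 12.32 in SBC-3. SBC-3 thus held 4.56-fold more signal for it (log2 difference -2.19, SE 0.58, limma adjusted p = 0.225). *WWTR1*, which encodes the related co-activator TAZ, was the other way round, with 11.48 and 10.12 against 8.24 to 8.53. Of the 25 genes tested around *YAP1* and TAZ, 10 were higher in the squamous lines and 3 lower (40% and 12%). The higher targets included *NT5E*, the ectoenzyme CD73, with 10.72 and 10.68 against 3.24 to 3.96, the clotting starter *F3* with 10.42 and 11.26 against 6.93 to 7.16, *THBS1* with 9.51 and 10.95 against 5.42 to 6.14 and *TGFB2* with 7.19 and 8.76 against 3.08 to 4.09. The lower ones were *YAP1* itself and the kinase genes *NUAK2* and *LATS2*.

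Of 37 epithelial junction genes, 28 were tested, and 16 of these were higher in the squamous lines and 1 lower (57.1% and 3.57%), with a median log2 difference of 3.91. Claudin-4, *CLDN4*, was 16.43 in EBC-1, 14.66 in SK-MES-1 and 9.02, 9.12 and 9.16 in SBC-3. Claudin-3, *CLDN3*, was 10.61 and 9.90 against 2.81 to 2.90, and the adhesion molecule gene *EPCAM* 13.98 and 9.72 against 3.13 to 3.87, so that SBC-3 was at background for both. *MAL2*, a protein of apical transport, was 12.89 and 9.48 against 3.05 to 3.08, and *DSG2*, a desmosomal cadherin, 9.88 and 8.63 against 2.90 to 3.55. The single lower gene was *CD24*. In 12 of the 16 higher genes no SBC-3 channel was well above background. Among the 12 junction genes bright in all 5 channels, 2 were higher and 1 lower (16.7% and 8.33%, against 8.88% and 9.55% of all genes under that filter), so the count of 16 rests largely on genes that entered the test through the squamous side.

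The squamous lines were not alike in this group. EBC-1 was above SK-MES-1 in 28 of the 28 tested junction genes, while it was above SK-MES-1 in 52.7% of all genes drawn in the plot of levels. E-cadherin, *CDH1*, was 13.63 in EBC-1, 2.94 in SK-MES-1 and 2.93 to 2.96 in SBC-3, so that SK-MES-1 lay with SBC-3 at background. Of the 9 junction genes left untested, 7 were above 8 (EBC-1) and 0 (SK-MES-1). A gene bright in both squamous lines would have been tested, so for these 7 the dim SK-MES-1 value was fixed by the filter. With 1 array per line this difference has no replicate check.

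Of 27 mesenchymal genes, 21 were tested, with 5 higher in the squamous lines and 6 lower (23.8% and 28.6%). *SPARC*, a matrix glycoprotein, was brightest in SBC-3, with 12.69, 12.70 and 12.74 against 3.07 (EBC-1) and 3.22 (SK-MES-1), at least 188-fold apart (limma adjusted p = 0.0843). *COL1A2*, a collagen I chain, was 8.59 to 8.62 in SBC-3 and at background in both squamous lines. *CDH11*, *ACTA2*, *SNAI2* and *ZEB2* were also lower in the squamous lines. Besides *TGFBI*, the genes higher in the squamous lines were vimentin (*VIM*), with 14.06 and 17.32 against 12.46 to 12.56, N-cadherin (*CDH2*), *SNAI1* and *LOXL2*. Among the 13 mesenchymal genes bright in all 5 channels the balance turned, with 4 higher and 2 lower (30.8% and 15.4%) and a median of 1.42, against -0.43 over the 21. SK-MES-1 was above EBC-1 in 15 of the 21.

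In the list of hemidesmosome and basement membrane genes, whose proteins anchor epithelium, 21 of 22 genes were tested, 11 were higher and 1 was lower (52.4% and 4.76%), with a median log2 difference of 2.41. The laminin-332 genes *LAMA3* and *LAMB3* were among the higher genes, with log2 differences of 3.96 and 11.63. The beta 4 integrin gene *ITGB4* was 11.82 and 12.27 against 3.11, 4.26 and 4.05, at least 110-fold apart, and its partner *ITGA6* and the laminin receptor *ITGA3* were higher too. *COL17A1*, the hemidesmosome collagen, was the exception, with 6.97 in EBC-1, 4.31 in SK-MES-1 and 11.61 to 11.63 in SBC-3. Among the 14 genes of the list bright in all channels, 5 were higher (35.7%) and 0 lower.

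Receptors and ligands of growth factor signaling differed in both directions, with 15 of 32 tested genes higher and 5 lower (46.9% and 15.6%). No SBC-3 channel was well above background for 7 of the 15, and neither squamous line was for 3 of the 5. Among the 18 members bright in all 5 channels, 5 were higher and 2 lower (27.8% and 11.1%). The shares of all genes under that filter were 8.88% and 9.55%. *MET*, the receptor of hepatocyte growth factor, was 16.94 in EBC-1, 13.83 in SK-MES-1 and 8.31, 8.19 and 8.35 in SBC-3. Both squamous lines lay above SBC-3, EBC-1 the further, with a mean gap of 137-fold (log2 difference 7.10, SE 1.56, limma adjusted p = 0.175). *MST1R*, the related receptor RON, was 11.44 and 10.15 against 2.81 to 3.55. *EGFR* was 7.74 and 8.49 against 4.04 to 5.13, and its ligands *AREG* and *EREG* were 11.64 and 11.18 against 4.44 to 5.41 and 10.33 and 11.36 against 2.90 to 3.82. *VEGFC*, a lymphatic growth factor, was at least 89.1-fold higher in the squamous lines and *FGFBP1*, a carrier of fibroblast growth factors, at least 29.6-fold. In contrast, *FGF2* was 3.09 and 4.03 in the squamous lines and 9.96 to 10.24 in SBC-3, at least 30.8-fold lower. The receptor genes *FGFR2*, *FGFR3* and *DDR2* and the ligand gene *PDGFA* were the other lower members.

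Cell cycle genes as a class hardly separated the lines. All 33 proliferation genes found on the array were tested, and 1 was higher (*KIF20A*) and 1 lower (*KIF11*), 3.03% each, with a median log2 difference of 0.61. *HELLS*, the chromatin remodeler that the study followed in LUSQ cells, was 9.80 in EBC-1, 9.03 in SK-MES-1 and 9.77, 9.77 and 9.80 in SBC-3. EBC-1 lay at the level of SBC-3 and SK-MES-1 slightly below it (log2 difference -0.37, SE 0.66, limma adjusted p = 0.838). Of 15 reference genes 1 was higher, *TFRC*, the transferrin receptor, and 0 were lower.

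Of 22 tested regulators of RB and G1, 4 were higher in the squamous lines and 5 lower (18.2% and 22.7%), shares near those of all genes. *RB1* itself, 9.94 and 9.99 in the squamous lines and 10.43, 10.36 and 10.35 in SBC-3, was lower by 0.42 on the log2 scale, with an SE of 0.56. Transcript level says nothing of whether the protein is made. The CDK inhibitor gene *CDKN1C* was 10.80 and 10.80 against 14.25, 14.32 and 14.25. *MDM2*, a ubiquitin ligase, was 6.87 and 7.34 against 9.99 to 10.05. *CCNE1* and *E2F3* were also among the lower genes. The higher genes were *E2F1*, with 11.12 and 10.98 against 8.61 to 8.64, *E2F2*, and the CDK4 and CDK6 inhibitor genes *CDKN2C* and *CDKN2D*. *CDKN2A* was split, at 9.98 in EBC-1, 6.08 in SK-MES-1 and 8.67 to 8.77 in SBC-3. In the MYC family, *MYC* was 13.60 and 12.61 against 12.80 to 12.84 and *MYCN* was at background in all channels. *MYCL*, which is often amplified in small cell lung cancer, was 6.03 and 4.0 against 9.27 to 9.33, lower in the squamous lines by 4.29 on the log2 scale. Of the 11 tested members 0 were higher and 2, *MYCL* and *MXD1*, were lower.

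Of the 16 lists, MHC class I presentation had the largest share of higher genes. All 21 were tested, 15 were higher in the squamous lines and 0 lower (71.4% and 0%), with a median log2 difference of 2.11. *HLA-B* was 14.74 in EBC-1, 13.46 in SK-MES-1 and 10.68, 10.74 and 10.77 in SBC-3. *HLA-C*, *HLA-F* and *HLA-G* were higher as well, though the class I genes are similar enough in sequence that their probes may share signal. *PSMB8*, a catalytic subunit of the immunoproteasome, was 10.99 and 10.15 against 3.01, 3.08 and 3.10. It was at background in SBC-3, at least 39.5-fold lower than in the squamous lines (limma adjusted p = 0.0843). The peptide transporter genes *TAP1* and *TAP2*, the trimming enzyme *ERAP2*, the transcriptional activators *NLRC5* and *IRF1* and the checkpoint ligand *CD274* were higher too. *B2M*, the light chain of class I, was 16.11 in EBC-1, 13.89 in SK-MES-1 and 12.94 to 12.98 in SBC-3, so that SK-MES-1 missed the size rule. *CALR*, *CANX*, *PDIA3* and *ERAP1*, which serve protein folding and trimming in the endoplasmic reticulum, met it in neither direction. This list does not rest on dim genes: among its 18 members bright in all 5 channels, 12 were higher (66.7%, against 8.88% of all genes under that filter).

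NRF2 is a transcription factor that KEAP1 holds at a low level and that, once released, binds antioxidant response elements of detoxification and redox genes. Of 36 listed genes 33 were on the array and 29 were tested, and 17 were higher in the squamous lines and 0 lower (58.6% and 0%), with a median log2 difference of 2.15. *PIR*, a nuclear iron protein, was 11.45 and 12.29 in the squamous lines and 2.87, 2.80 and 2.81 in SBC-3, at least 97.2-fold apart (limma adjusted p = 0.0843). The quinone reductase gene *NQO1* was 9.45 and 10.58 against 4.76, 5.41 and 3.64, and *AKR1B10*, an aldo-keto reductase, 9.10 and 10.81 against 3.06 to 3.33. The thioredoxin reductase gene *TXNRD1* was 11.98 and 12.08 against 8.48 to 8.65 and the glutamate-cysteine ligase gene *GCLC* 10.93 and 12.74 against 9.44 to 9.55. *GCLM*, *PGD* and *PRDX1* were members that met the rule in neither direction. The signal for *NFE2L2*, which encodes NRF2, was at background in all channels and was not tested. Such a signal does not show that the transcript is absent, as the probe itself was not checked. Among the 22 members bright in all 5 channels, 10 were higher (45.5%). Between the squamous lines, SK-MES-1 was above EBC-1 in 28 of the 29 tested genes, with the same limit of 1 array per line.

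The promoter windows of *PIR* and *TXNRD1* are shown because both genes were higher and both windows hold the core of the antioxidant response element, searched as TGACNNNGC on both strands and printed in capitals. Windows run from 250 bases before to 50 bases after the start in RefSeq on GRCh38.p14.
PIR promoter, chrX:15493284-15493583, minus strand: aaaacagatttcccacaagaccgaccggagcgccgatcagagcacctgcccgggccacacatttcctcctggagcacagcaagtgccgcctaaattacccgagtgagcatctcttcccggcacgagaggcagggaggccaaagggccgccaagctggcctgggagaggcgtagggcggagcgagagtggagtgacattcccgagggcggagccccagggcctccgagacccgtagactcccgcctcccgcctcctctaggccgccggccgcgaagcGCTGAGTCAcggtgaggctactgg
TXNRD1 promoter, chr12:104215529-104215828, plus strand: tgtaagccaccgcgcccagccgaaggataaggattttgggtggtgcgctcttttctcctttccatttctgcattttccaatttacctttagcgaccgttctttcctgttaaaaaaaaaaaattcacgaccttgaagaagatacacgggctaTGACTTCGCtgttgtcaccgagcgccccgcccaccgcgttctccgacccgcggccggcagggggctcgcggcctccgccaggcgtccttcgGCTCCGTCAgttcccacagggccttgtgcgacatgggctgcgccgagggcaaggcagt
The motif was in 13.6% of the 27305 gene windows of the table and in 7 of the 23 NRF2 list genes with a window (30.4%). It was in 3 of the 11 higher genes with a window and in 3 of the 8 tested ones that were not higher, so that its presence in this window did not separate them.

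**Figure D3:**
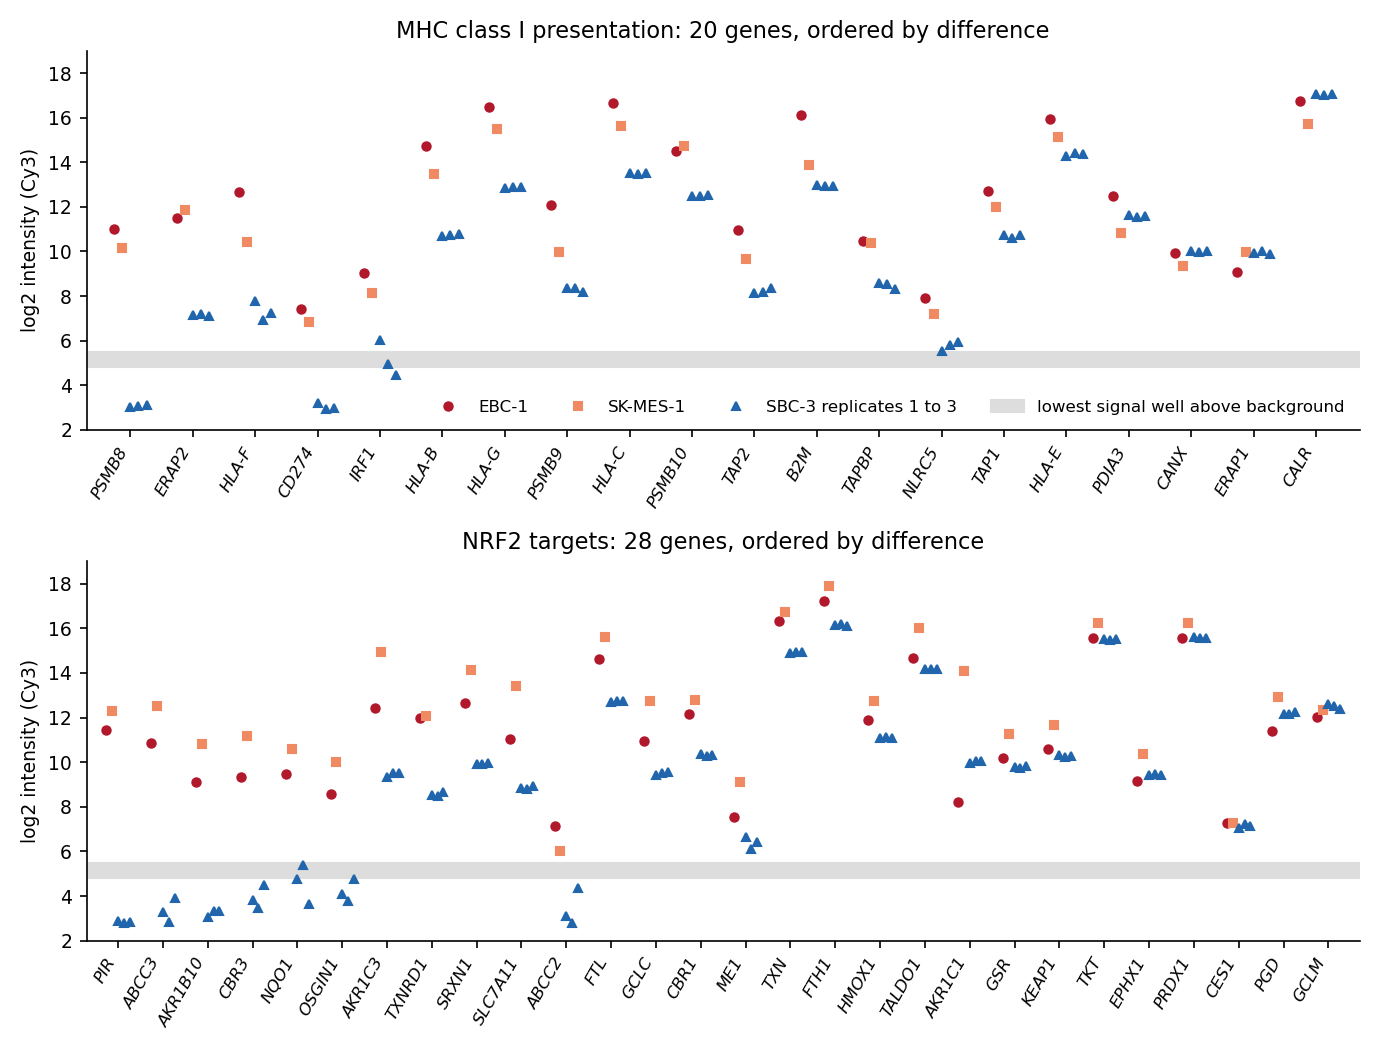
Log2 intensity (vertical axis) of 20 tested MHC class I presentation genes (top) and 28 tested NRF2 targets (bottom) in EBC-1 (circles), SK-MES-1 (squares) and the 3 SBC-3 control channels (triangles), ordered by the difference of squamous and SBC-3 means, with the lowest signals well above background in grey. In the top panel EBC-1 is above SK-MES-1 in 17 genes, and in the bottom panel SK-MES-1 is above EBC-1 in 27.

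Cancer testis antigens are germ cell genes that tumors may switch on. Of 31 on the array 4 were tested, and 0 were higher or lower by the size rule. *CTAG2* was 6.70 in EBC-1, 14.89 in SK-MES-1 and 5.40 to 6.44 in SBC-3, and among the 27 genes left untested 6 were above 8 in SK-MES-1 and 0 in EBC-1. For these 6 the dim EBC-1 value was fixed by the filter, as a gene bright in both squamous lines would have been tested. Of 19 markers of blood, vessel and stromal cells on the array 8 were tested, 2 were higher (*CD14* and *PDGFRB*) and 0 lower (25% and 0%). With dim values raised to the lowest signal well above background, the gaps of *CD14* and *PDGFRB* were 0.71 and 0.58, under the limit of 1. *PECAM1*, *KDR*, *DCN* and *MS4A1* were at background in every channel.

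**Figure D4:**
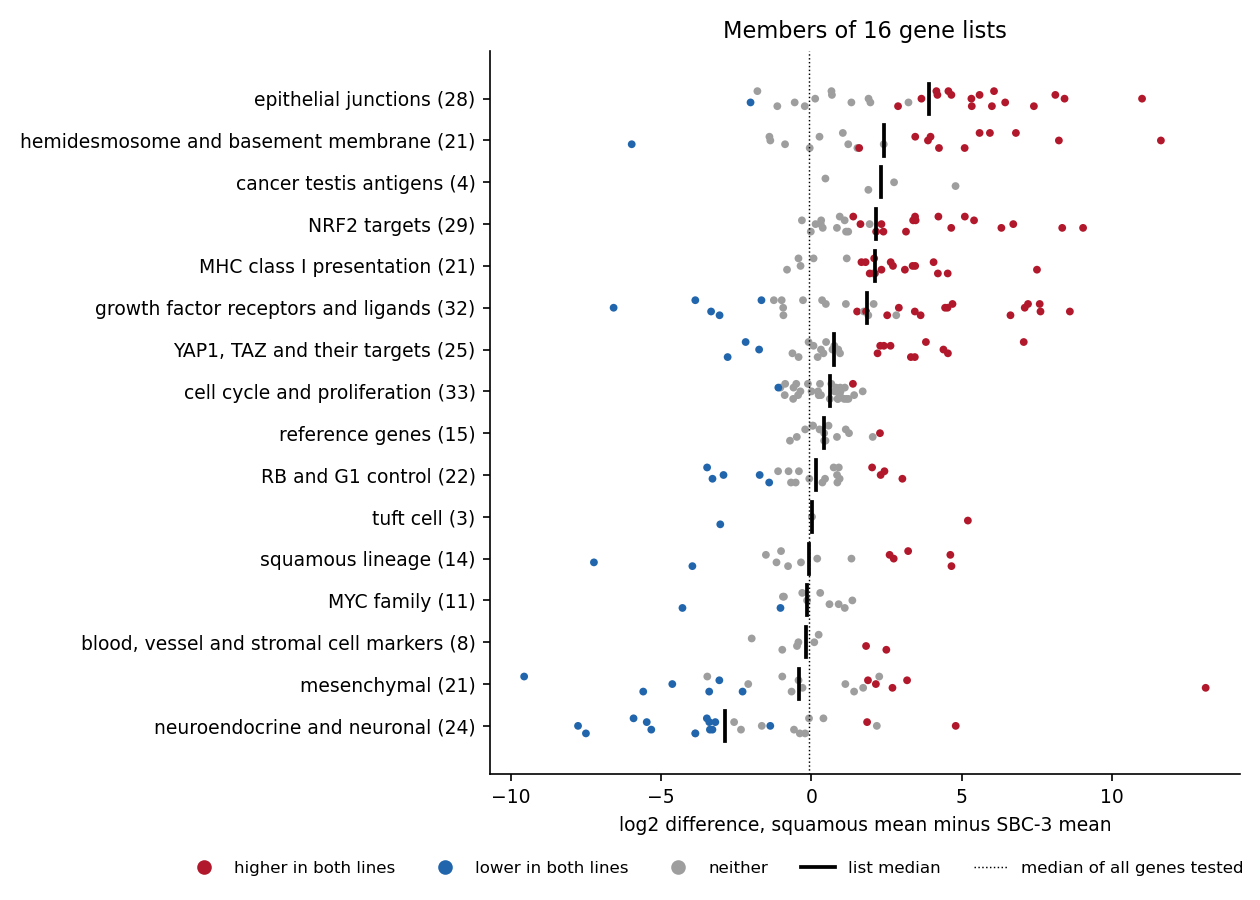
Each point is a tested member of 1 of 16 gene lists, placed by its log2 difference between the squamous mean and the SBC-3 mean (horizontal axis), in red or blue where both squamous lines were higher or lower than every SBC-3 channel by at least 1, with the list median as a bar, the median of all genes as a dotted line and the number tested in brackets. The MHC class I and NRF2 lists have no blue point, and the neuroendocrine median lies at -2.89.

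Neighbouring genes were next set side by side. This was done after the values had been seen, as was the choice of the gene families below. The 14214 tested genes with a place in RefSeq were put in gene order, and 22 runs of at least 6 neighbours were all higher or all lower, 19 of them lower in the squamous lines. The longest held 28 successive tested genes of chromosome 19, from *ZNF14* to *ZNF681*, of which 24 are zinc finger genes of the ZNF series. Such factors with a KRAB domain silence transposable elements. *ZNF93* was 5.40 in EBC-1, 5.58 in SK-MES-1 and 9.03, 9.16 and 9.0 in SBC-3, and *ZNF626* 8.18 and 8.56 against 11.09 to 11.15. *ZNF737* was 3.98 and 5.10 against 7.02 to 7.40. In each of these the SBC-3 channels stood above both squamous lines with no overlap. The log2 differences over the 28 genes ranged from -4.0 at *ZNF682* to -1.19 at *ZNF257*. Both squamous lines were well above background for 15 of the 28, and neither was for 9. Over all ZNF genes of chromosome 19, 75 of 201 tested were lower and 4 higher (37.3% and 1.99%), and on the other chromosomes 51 of 213 were lower and 9 higher (23.9% and 4.23%). The shares over all genes were 14.4% lower and 12.7% higher. ZNF genes dim in both squamous lines entered the test only through SBC-3, so these counts are no independent measure of a difference. Closely related zinc finger genes may share probe signal. The series also held 3 control channels of A549, which the labels give as lung adenocarcinoma. After quantile normalization of all 8 green control channels, their means were 4.33 for *ZNF93*, 7.88 for *ZNF626* and 4.61 for *ZNF737*. On that scale A549 lay at least 1 under SBC-3 in 28 of the 28 genes of the run.

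**Figure D5:**
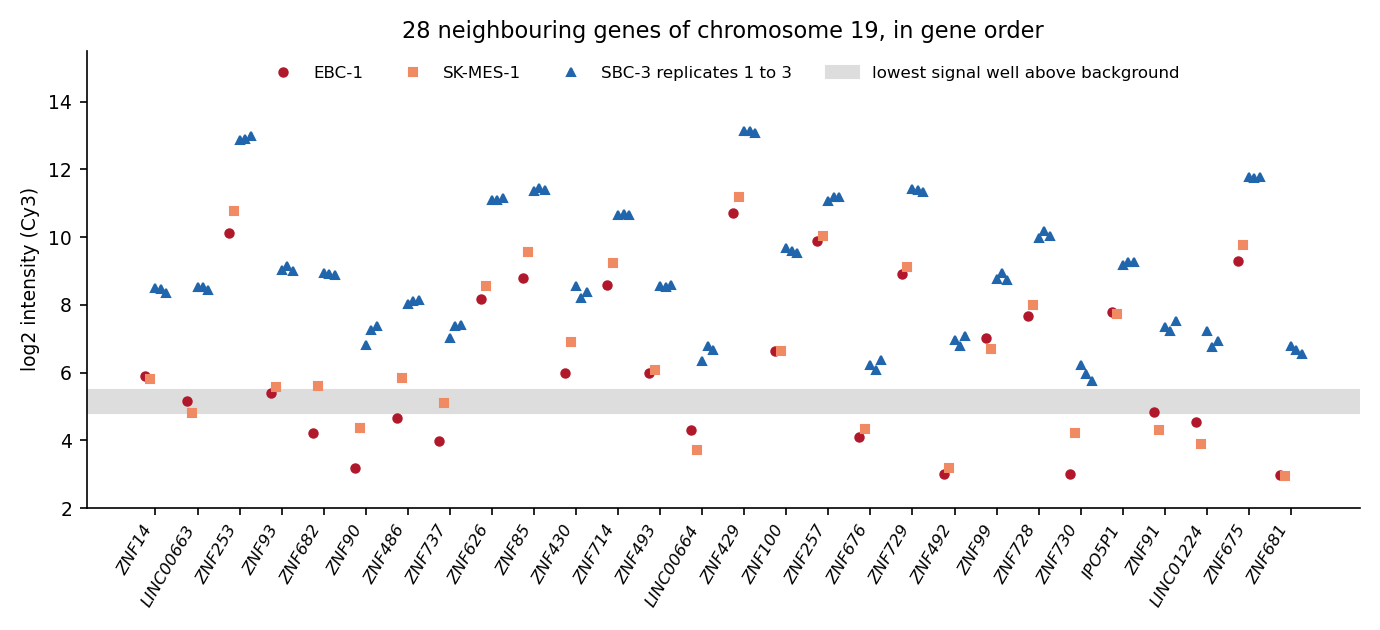
Log2 intensity (vertical axis) of 28 neighbouring tested genes of chromosome 19 in gene order (horizontal axis) in EBC-1 (circles), SK-MES-1 (squares) and the 3 SBC-3 control channels (triangles), with the lowest signals well above background in grey. All 3 triangles lie above the circle and the square in each of the 28 genes.

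The promoters of these genes are shown for a feature they have in common. Of the 24 zinc finger genes 19 had a window, and 19 of 19 held the motif CCAATCA, a form of the CCAAT box, on either strand, against 7.28% of the 27305 gene windows. It was there more than once in 10 of the 19 (52.6%), against 1.2% of all. The motif was chosen after windows of this run had been read. Outside the run, it was in 14 of 46 windows of chromosome 19 ZNF genes that were lower (30.4%) and in 17 of 111 of those that were not (15.3%). Neighbouring zinc finger genes descend from shared ancestors and their promoters are alike over much of their length, so that the windows are not independent. The motif is in capitals.
ZNF93 promoter, chr19:19900696-19900995, plus strand: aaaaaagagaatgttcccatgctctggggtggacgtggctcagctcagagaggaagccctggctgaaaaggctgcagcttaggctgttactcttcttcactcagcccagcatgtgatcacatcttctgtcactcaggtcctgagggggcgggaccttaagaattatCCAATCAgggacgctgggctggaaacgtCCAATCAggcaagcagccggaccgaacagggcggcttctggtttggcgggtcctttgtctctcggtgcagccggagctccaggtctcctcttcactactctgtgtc
ZNF626 promoter, chr19:20661522-20661821, minus strand: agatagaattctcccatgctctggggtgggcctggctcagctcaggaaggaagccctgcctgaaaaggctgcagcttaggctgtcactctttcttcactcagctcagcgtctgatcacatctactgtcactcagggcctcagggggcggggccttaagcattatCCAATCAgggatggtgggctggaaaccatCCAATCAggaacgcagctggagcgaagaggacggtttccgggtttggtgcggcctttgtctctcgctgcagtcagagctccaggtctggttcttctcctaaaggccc
ZNF737 promoter, chr19:20565732-20566031, minus strand: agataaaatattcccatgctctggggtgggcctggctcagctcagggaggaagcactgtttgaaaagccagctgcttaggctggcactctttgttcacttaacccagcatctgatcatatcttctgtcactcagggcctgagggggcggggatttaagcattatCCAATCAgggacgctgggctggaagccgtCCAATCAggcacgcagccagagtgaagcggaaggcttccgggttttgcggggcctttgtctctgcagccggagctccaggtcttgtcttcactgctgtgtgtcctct
In all 3 windows the motif occurs 2 times, and a match of letters is a description and not a bound site.

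A run of 9 genes on chromosome 17, *CCR7* to *KRT10*, was lower in the squamous lines by 1.48 to 11.5 on the log2 scale. It held *KRT24*, *KRT25*, *KRT26*, *KRT27* and *KRT28*, keratins of differentiated skin and hair follicle, together with *CCR7*, a chemokine receptor of lymphocytes, and *SMARCE1*, a chromatin remodeling subunit. *KRT25* was 4.52 and 4.16 in the squamous lines and 15.76, 15.63 and 15.68 in SBC-3. *CCR7* was 4.39 and 3.57 against 14.43 to 14.50. Both were at background in the squamous lines. The simple epithelium keratin genes *KRT19*, *KRT7* and *KRT18* lay on the other side. *KRT19* was 17.80 and 16.51 against 7.04 to 7.56, *KRT7* 17.09 and 16.13 against 10.45 to 10.59 and *KRT18* 15.55 and 13.71 against 8.17 to 8.38. Over 21 tested keratin genes of 54 on the array, 7 were higher and 7 lower (33.3% each, against 12.7% and 14.4% of all genes).

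HOX genes, which set position along the body axis, were tested in 30 cases, of which 19 were lower in the squamous lines and 1 higher. By cluster, 4 of 9 HOXA genes (44.4%), 7 of 9 HOXB (77.8%), 3 of 7 HOXC (42.9%) and 5 of 5 HOXD (100%) were lower. The share over all genes was 14.4%, and 9 HOXD genes were on the array. Members such as *HOXA11* and *HOXC12* were well above background in neither squamous line and entered the test only through SBC-3. These counts are thus no independent measure of a difference. *HOXB13* was 2.79 in EBC-1, 6.21 in SK-MES-1 and 13.41 to 13.44 in SBC-3, and *HOXB9* 10.01 and 10.33 against 13.84 to 13.88. *HOXA11* was 4.07 and 4.84 against 10.64 to 10.71. In these 3 genes every SBC-3 channel stood above both squamous lines. The 1 higher gene was *HOXA6*, with 8.93 and 5.95 against 4.31 to 4.91.

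Metallothioneins, small proteins that bind zinc and copper, went the other way as a block of chromosome 16. Of 9 tested, 7 were higher in the squamous lines and 0 lower, with a median log2 difference of 4.94. These are 77.8% and 0%, against 12.7% and 14.4% of all genes. *MT1E* was 15.12 and 15.38 against 6.63 to 6.98, and *MT1M* 10.98 and 12.19 against 2.94 to 3.02. The members are near-identical and may share signal. A run of chromosome X, *LAGE3* to *FAM223A*, was higher by 2.29 to 4.65, and a run of chromosome 2 held the nuclear body genes *SP100*, *SP110*, *SP140* and *SP140L*. The 3 probes of *SP100* disagreed in direction, with log2 differences from -0.84 to 5.55. Its gap was 0.89 in red and 0.89 with dim values raised to the lowest signal well above background, under the limit of 1. Of 17 CXC chemokine genes on the array 10 were tested, and 6 were lower and 0 higher. These are 60% and 0%, against 14.4% and 12.7% of all genes. *CXCL6*, *PF4V1* and *PPBP* were well above background only in SBC-3 and entered the test through it. *CXCL6* was 2.71 and 2.85 against 13.22 to 13.32, while *CXCL8* was 9.67 in EBC-1, 3.21 in SK-MES-1 and 9.17 to 9.37 in SBC-3.

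A run of 7 genes on chromosome 13, lower in the squamous lines, held *MIR17HG*, the host gene of the cluster from miR-17 to miR-92a, a set of oncogenic microRNAs that repress *E2F1* among other targets. The host transcript was 6.52 in EBC-1, 6.04 in SK-MES-1 and 8.78, 8.85 and 8.78 in SBC-3, lower in the squamous lines by 2.53 (SE 0.60, limma adjusted p = 0.194). The probes named for the hairpins *MIR19B1* and *MIR92A1* were at background in the squamous lines and at 5.60 to 6.20 and 8.19 to 8.42 in SBC-3. The array measures the primary transcript, and mature microRNAs were not measured. The mature sequences of the cluster (RefSeq, GRCh38.p14) are shown with the seed, bases 2 to 8, in capitals, to show which members pair with the same target sites.
miR-17-5p, chr13:91350618-91350640, plus strand: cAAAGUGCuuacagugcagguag
miR-20a-5p, chr13:91351072-91351094, plus strand: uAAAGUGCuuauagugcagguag
miR-18a-5p, chr13:91350756-91350778, plus strand: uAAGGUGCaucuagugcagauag
miR-19a-3p, chr13:91350939-91350961, plus strand: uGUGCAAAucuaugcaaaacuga
miR-19b-3p, chr13:91351245-91351267, plus strand: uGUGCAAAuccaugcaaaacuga
miR-92a-3p, chr13:91351361-91351382, plus strand: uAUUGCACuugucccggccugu
The first pair share the seed AAAGUGC, miR-18a-5p has AAGGUGC, the miR-19 pair share GUGCAAA, and miR-92a-3p has AUUGCAC.

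In 189 genes the squamous lines lay on opposite sides of SBC-3 by at least 1, 85 with EBC-1 above and SK-MES-1 below and 104 the reverse. Finally, the red channels of the same arrays, which hold treated cells of the same lines, were set beside the green ones. They share the arrays and the cell lines and are no independent repeat. Of 1795 higher genes with a red value, 1377 were higher by at least 1 in red as well and 0 were lower, and of 2030 lower genes 1469 were lower and 0 higher. Over all genes tested in red, 10.5% were higher and 11.4% lower. Of the 12 highest and 12 lowest genes, 12 and 12 met the rule in red.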

How the data were processed

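Total RNA had been extracted with Trizol, per the labels, and control (Cy3) and treated (Cy5) RNA of a line was hybridized to the same Agilent 2-color array without dye swap. The authors deposited Feature Extraction 12.1.1.1 output, whose processed intensity had been background-subtracted and normalized between the dyes within each array, so that a Cy3 value also depends on the treated RNA beside it. The paper states no array processing and does not describe the SBC-3 arrays. A deposited table of log10 ratios was not used.

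The Cy3 processed intensities of 60901 non-control spots were quantile normalized on the log2 scale, 46 to 90 flagged spots per channel were left out (0 were saturated) and spots of a probe were averaged. Probes well above background in all channels of at least 1 side were kept (24703 of 58201) and averaged per gene. Between 41.1% and 46.4% of the spots of a channel were well above background. Symbols came from RefSeq accessions, of which 24782 of 50096 matched. Of 3654 genes with several probes, 676 had probes on both sides of 0.

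limma 3.58.1 (R 4.3.3) compared EBC-1 and SK-MES-1 with the mean of the SBC-3 channels, with Benjamini-Hochberg adjustment over 14236 genes. With the SBC-3 channels averaged, its p-values measure the spread between EBC-1 and SK-MES-1, shared in part over all genes. The spread between SBC-3 channels, which may be technical, does not enter them. The size rule and the fit were checked on simulated data. "At least" folds set the bright side against the lowest signal well above background of the dim side. The members and gene lists were chosen with earlier results of these data known. Named were, per list, the members with the widest gap between the sides, a fixed set of subtype factors and cell cycle genes, and the 12 highest and 12 lowest genes by gap, leaving out *XIST*, Y-linked and LOC genes. Other named genes were chosen after their values were seen. The planned normexp alternative (offset 50) used the median in place of the mean spot signal. Scaling, filters, probe choice, left-out channels, a limit of 2 and the red channels were the other alternatives. A few genes of the lists were counted but are not reported here by name.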

Additional observations from a re-analysis of the deposited data

Results flagged for a closer look

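In 13 genes of the lists the squamous lines moved to opposite sides of every SBC-3 channel by at least 1 on the log2 scale. Each value is a line minus the SBC-3 mean, and with 1 array per line the difference between the lines was not tested. The epithelial genes were above SBC-3 in EBC-1 and below it in SK-MES-1. *CLDN7*, a claudin, was at 4.08 (EBC-1) and -3.83 (SK-MES-1), *CGN*, or cingulin, at 3.49 and -2.13, *GRHL1*, an epithelial factor, at 1.63 and -2.08, and *PRSS8*, a membrane protease, at 2.99 and -6.59. The CDK inhibitor gene *CDKN2A* had the same order, at 1.27 and -2.63.

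The reverse order held genes of matrix, mesenchyme and germ cells. *COL6A1* and *COL6A2*, chains of collagen VI, were below SBC-3 in EBC-1, at -1.18 and -3.64, and above it in SK-MES-1, at 3.44 and 2.78. *TWIST2*, a mesenchymal factor, was at -6.64 and 2.43, and *FGFR1* at -1.24 and 1.95. The NRF2 target *AKR1C1* was at -1.83 and 4.04 and the keratinocyte gene *CSTA* at -3.78 and 1.46. The cancer testis antigen genes *CSAG1* and *MAGEA6* were below SBC-3 in EBC-1, at -2.17 and -1.66, and above it in SK-MES-1, at 5.96 and 7.16.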

How the results depend on the processing

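The count of genes called by limma was 6477 with the SBC-3 channels as separate samples, 1147 with the line as a random block, 346 after scaling to the 75th percentile, 46 with probes bright in all 5 channels and 539 with dim values raised to the lowest signal well above background, an alternative chosen after seeing the data. Higher and lower genes numbered 605 and 672 under normexp, 1020 and 1097 with probes bright in all channels and 946 and 951 at a limit of 2. Without EBC-1 they were 3316 and 3070, without SK-MES-1 3162 and 3308, and without an SBC-3 channel 1871 to 1885 and 2130 to 2150. limma called 0 without any SBC-3 channel and could not be fitted without a squamous line. The 75th percentile moved the median of all genes from -0.08 to 0.03.

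Direction turned in few results. *CDKN2A* was 0.0617 under normexp and *GINS2* -0.12 in red. With a channel left out, *CDKN2A* ranged from -2.64 without EBC-1 to 1.26 without SK-MES-1, *MYC* from -0.19 to 0.77 and *HELLS* from -0.74 to 0.016. The squamous median (-0.08) was 1.97 with probes bright in all channels, 0.93 in red, and 1.45 and 2.17 without EBC-1 and SK-MES-1 (range over left-out channels -0.27 to 2.17). The mesenchymal median (-0.43) was 1.42 with probes bright in all channels and between -1.17 (without SK-MES-1) and 2.08 (without EBC-1). That of blood and stromal markers (-0.17) was 0.0756 without a filter and 0.42 and 0.31 without EBC-1 and SK-MES-1, that of the MYC family (-0.14) 0.48 without SK-MES-1, and those of RB and cell cycle genes (0.15 and 0.61) -0.32 and -0.14 in red. The cause was not tested. Of 1600 values of named genes 1305 were counted as unchanged, 290 as moved and 5 as reversed. Where limma was fitted, a named gene counted as unchanged if its direction held and its adjusted p stayed on the same side of 0.05. As no gene passed the main test, a change of size alone left a gene unchanged by this label. These counts are thus no measure of how stable the sizes are. Of 224 list medians 185 were counted as unchanged, 27 as moved and 12 as reversed. Medians were judged against the spread between the medians of EBC-1 and SK-MES-1. With a squamous line left out, the shift and the spread both come from the difference between EBC-1 and SK-MES-1. A shift below the spread is then largely fixed in advance, so these settings, with 104 named genes each, cannot show stability. No paired analysis was possible because the control channels carry no numbers that pair the lines. The number of arrays limits the precision.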
